A study of Mus musculus with 24 samples.

Results

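The genes described here are 33 mouse genes of glycolysis and of the response to low oxygen, from glucose uptake (Slc2a1, Slc2a3) through the enzymes that turn glucose into pyruvate and lactate to the hypoxia factor Hif1a, its hydroxylases and genes it is known to switch on. They were taken by name from the gene column of the array files, where all 33 were found under 57 probes among 34844 gene names. Where a gene had several probes, the brightest stood for it. Of the 33 genes, 32 passed the filter on dim signals and were tested, and 27 were well above background on all 24 arrays.

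The series profiled polyadenylated RNA, amplified by PCR from few sorted cells and labelled with Cy3, on 1 Agilent array per sample. Cells of transgenic thymus lacking Foxn1 (-/-, called tg) were DP thymocytes, which carry both CD4 and CD8 (n = 4), and IgM-negative B cells (n = 2). Thymocytes of Foxn1 heterozygous thymus (+/-, called wt) were DN3, a stage without CD4 and CD8 (n = 3), DP (n = 3), CD4 single-positive SP4 (n = 3) and CD8 single-positive SP8 (n = 3). B cells of wild-type fetal liver (FL) were IgM-positive (n = 3) or IgM-negative (n = 3). Foxn1 is the factor that thymic epithelium needs to support T cell development. It is absent from or heterozygous in every thymus sample, and the labels used here name neither the transgene with its promoter nor the age of the mice. The title numbers 3 and 3A of wt DP, and 6, 6A and 6B of tg DP, may mark repeats of the same cells, which would leave 2 samples in each of these groups. Nothing in the labels ties the replicates to separate animals, so the p-values here weigh differences against a spread that may be only technical.

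Glycolysis breaks glucose down to pyruvate in the cytosol and yields ATP without oxygen, and lactate dehydrogenase turns pyruvate into lactate, which leaves the cell through monocarboxylate transporters. Dividing lymphocyte progenitors are known for high glycolysis, and resting ones for lower. When oxygen is scarce, prolyl hydroxylases of the Egln family no longer mark the Hif1a protein for degradation, and the factor activates transporters and enzymes of glycolysis beside genes for blood vessel growth, mitochondrial clearance and pH balance.

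Levels are log2 processed signals from which the 75th percentile of their own array was subtracted, and means carry the SD over arrays. Differences on this log2 scale are the first group named minus the second, ± the SE from a limma fit to all 24 arrays. On tg B array 23, 80.6% of probes were well above background, and on the other arrays 87.6% to 96.7%; 3 arrays (tg B 23, IgM-positive 21 and tg DP 4) stood apart on the first principal component. Markers of both lineages were detected in every group. The mean level of 9 T cell marker genes was -0.60 to 0.40 on tg DP arrays and -0.72 to 0.61 on wt thymocyte arrays, against -1.27 and -0.93 on tg B arrays and -1.17 to -0.69 on fetal liver B arrays, yet 8 or 9 of the 9 genes were well above background on every array of each B group. Cd3e, a T cell receptor component, lay between 0.46 and 0.84 in all 8 groups. The mean level of 9 B cell markers was -1.70 and -1.17 on tg B arrays, -1.68 to -0.55 on IgM-positive and -0.90 to -0.30 on IgM-negative fetal liver arrays. It was -1.64 to -0.94 on tg DP arrays and -1.75 to -1.16 on wt thymocyte arrays, so both tg B arrays lay within the range of thymocytes. Among markers of other cells, the mean level of 8 myeloid genes was 0.71 to 1.80 over all arrays, that of 7 thymic epithelium genes -0.77 to 0.04, that of 8 erythroid genes -1.96 to -0.79 and that of 6 hepatocyte genes -3.68 to -1.66. The part that other cells in the sorts take in the values below was not tested.

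Glyceraldehyde-3-phosphate dehydrogenase (Gapdh), the enzyme after the triose step, carried 8 probes, and the following 3 are shown because they are the brightest of it and lie in the gene on chromosome 6. They are written 5′ to 3′ as the array files give them, on the minus strand of mm9, and capitals mark the longest run that a probe of another gene name also holds.
Gapdh, brightest probe, chr6:125113229-125113288: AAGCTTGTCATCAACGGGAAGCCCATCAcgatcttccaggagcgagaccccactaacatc
Gapdh, next brightest, chr6:125112979-125113038: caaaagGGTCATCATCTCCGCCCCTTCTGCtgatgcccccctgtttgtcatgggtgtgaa
Gapdh, dimmest of the 3, chr6:125113312-125113371: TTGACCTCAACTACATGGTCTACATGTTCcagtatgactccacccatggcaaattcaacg
The run of the brightest probe is 28 bases long and is shared with a probe named Gm6981. Because of such runs a part of the Gapdh signal may come from near-identical copies.

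The probes of 4 further genes are shown because each was among the 4 genes of the set with the strongest statistic in a comparison of B cell groups or of lineages, and because differences of theirs are described below. For Pgk1 and Car9 only the first 30 bases are given.
Pgk1, placed by the array at chr3:57906830-57906894 (minus strand, mm9): ttcctgtGCTCCTAAGTCAACCTAGTGTTT
Pfkfb3, chr2:11404189-11405602 (minus strand, mm9): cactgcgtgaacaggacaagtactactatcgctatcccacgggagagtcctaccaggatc
Tpi1, chr6:124761923-124761982 (minus strand, mm9): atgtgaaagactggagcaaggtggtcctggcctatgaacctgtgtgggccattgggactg
Car9, chr4:43526518-43526577 (plus strand, mm9): ttgaatgctgggattacaggaatgcaccat
The Pgk1 probe shares a run of 53 bases, of which the capitals show the start, with a probe named Gm5537. The array places the Pgk1 probe on chromosome 3, whereas RefSeq places Pgk1 on chromosome X. Pgk1 has no other probe, and whether its values below come from the gene or from a near-identical copy was not tested. The probe of Car9 holds a 16-base run that occurs in 4 of 32851 promoter windows of RefSeq. The brightest probes of Hk1 (chromosome 5, gene on 10) and Eno1 (chromosome 2, gene on 4) were also placed away from their genes. In all, 13 of the 57 probes, 5 of them the brightest of their gene, share a run of at least 20 bases with a probe of another name.

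No gene of the 32 passed an adjusted p of 0.05 (limma with Benjamini-Hochberg adjustment over 33597 genes) in any of 9 comparisons or in the test for any difference among the 8 groups. For any difference, 71 genes of the array (0.211%) passed, and before adjustment 6 of the 32 and 4594 of all genes (13.7%) had a p under 0.05. Pgk1, the first ATP-yielding enzyme of glycolysis, stood nearest (adjusted p = 0.134), followed by Car9, a carbonic anhydrase that hypoxia induces (adjusted p = 0.187), Gapdh (adjusted p = 0.266) and Bnip3 (adjusted p = 0.322). The genes varied over the 24 arrays as other genes did: their median SD was 0.526, against 0.523 over all genes tested, and 16 of the 32 lay under the median of all genes.

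**Figure D1:**
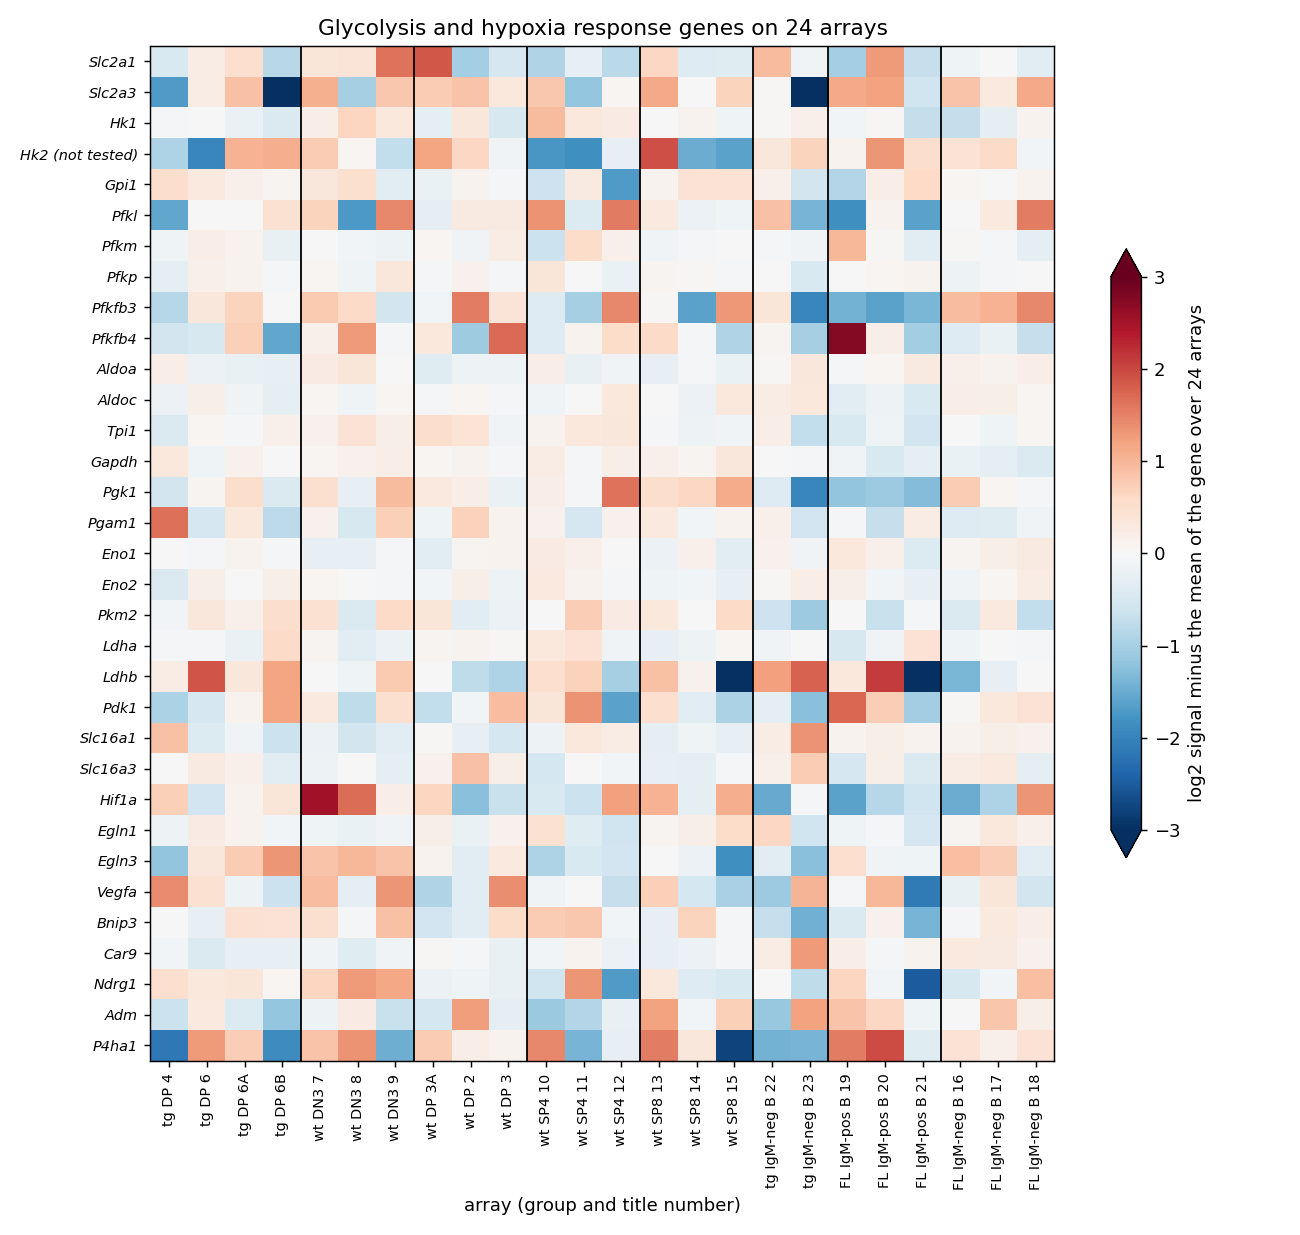
Each row is a gene and each column an array, in the order of the groups; colour is the log2 signal minus the gene's own mean over the 24 arrays. Columns IgM-positive 21 and tg B 23 have the lowest medians over the 32 genes, -0.453 and -0.288, while Gapdh, Aldoa, Ldha and Eno1 stay pale throughout.

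Between arrays the set as a whole moved little. The median deviation of the 32 genes from their own means was -0.453 on IgM-positive array 21, where 7 genes lay above their mean, and -0.288 on tg B array 23, where 11 did. The highest medians were 0.189 on DN3 array 9 and 0.170 on DN3 array 7, while DN3 array 8 was at -0.079. IgM-positive array 21 and tg B array 23 were among the 3 that stood apart on all genes.

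The smallest adjusted p of the set in a pairwise comparison was that of Gapdh, higher in wt thymocytes than in B cells of fetal liver. Between the 12 wt thymocyte and 6 fetal liver B arrays, 0 of the 32 genes and 82 of all genes (0.244%) passed, and 7 of the 32 against 4481 of all genes (13.3%) had an unadjusted p under 0.05. Over the 32 genes, 20 of them higher in thymocytes, the median difference was 0.07, against 0.06 over all genes. Of the 7 genes of lower glycolysis 5 were higher in thymocytes, with a median of 0.38, and of the 9 tested of upper glycolysis 6, with a median of 0.08. Of all 33597 genes 19303 were higher.

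Gapdh measured 4.25 to 4.64 with a median of 4.42 on the 12 thymocyte arrays and 3.84 to 4.20 with a median of 4.03 on the 6 fetal liver B arrays. The lowest wt thymocyte array exceeded the highest fetal liver B array. Gapdh was the 1 gene of the 32 without overlap between these arrays, which held for 0.441% of all genes. The means were 4.42 ± 0.11 in thymocytes and 4.01 ± 0.14 in B cells, a difference of 0.41 ± 0.09 (SE, adjusted p = 0.0621, limma). Gapdh passed with normexp background (adjusted p = 0.0425) and among genes well above background on all arrays (adjusted p = 0.046). In such sorted bulk samples, fewer cells of a type and less RNA per cell cannot be told apart. By group, DN3 arrays were at 4.35, 4.42 and 4.49, DP at 4.36, 4.41 and 4.25, SP4 at 4.53, 4.25 and 4.49 and SP8 at 4.45, 4.38 and 4.64. IgM-positive B arrays were at 4.20, 3.84 and 4.04 and IgM-negative ones at 4.09, 4.02 and 3.86. The 4 wt thymocyte stages overlapped one another, and so did both kinds of fetal liver B cell. The tg DP arrays, which are not part of this comparison, were at 4.62, 4.18, 4.42 and 4.31. The lowest of them, array 6, lay below IgM-positive array 19, so thymocytes with tg DP included overlap fetal liver B cells. The B cells of tg thymus, at 4.31 and 4.26, lay above every fetal liver B array and within the thymocyte range; their difference from fetal liver IgM-negative B cells was 0.30 ± 0.16 (adjusted p = 0.353).

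Apart from slide 1, no slide held both wt thymocytes and B cells of fetal liver. With the slide as a block the difference in Gapdh was 0.19 (adjusted p = 0.862), and on slide 1 SP4 array 11 was 0.04 above IgM-positive array 19. With 1 array of each lineage on that slide, lineage and slide cannot be fully told apart. All 8 probes of Gapdh were higher in thymocytes, by 0.06 to 0.41. The next brightest, shown above, gave 0.40 ± 0.09 (adjusted p = 0.0985 over all probes, limma). Probes placed by the array on chromosomes 7, 8 and X, away from the gene, differed by 0.24, 0.06 and 0.21. Each of the 8 shares a run of at least 20 bases with a probe of another name, and all were measured on the same arrays.

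Some other steps of lower glycolysis pointed the same way in thymocytes without passing. Pgk1 had a lowest, median and highest value of -0.59, 0.03 and 1.29 in thymocytes and of -1.65, -0.92 and 0.42 in fetal liver B cells, with a difference of 0.93 ± 0.27 (adjusted p = 0.141); with the slide as a block it was 0.19, and on slide 1 it was 1.13. Triosephosphate isomerase (Tpi1), which interconverts the triose products of aldolase, had 1.36, 1.66 and 2.03 in thymocytes and 0.92, 1.38 and 1.57 in B cells, a difference of 0.38 ± 0.14 (adjusted p = 0.232). Its other probe differed by 0.07, and the mean of all probes by 0.23. Pyruvate kinase (listed as Pkm2), the last step, averaged 0.21 ± 0.38 in thymocytes and -0.26 ± 0.42 in B cells, a difference of 0.47 ± 0.20 (adjusted p = 0.303). For all 3 genes the ranges of the lineages overlap. The other enzymes of this stretch differed less: phosphoglycerate mutase Pgam1 by 0.32 ± 0.29, and the enolases Eno1 by -0.14 ± 0.11 and Eno2 by -0.02 ± 0.11. In upper glycolysis Hk1 differed by 0.47 ± 0.16 (adjusted p = 0.209, limma), a stronger statistic than that of Tpi1. With the slide as a block the Hk1 difference was 0.16.

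**Figure D2:**
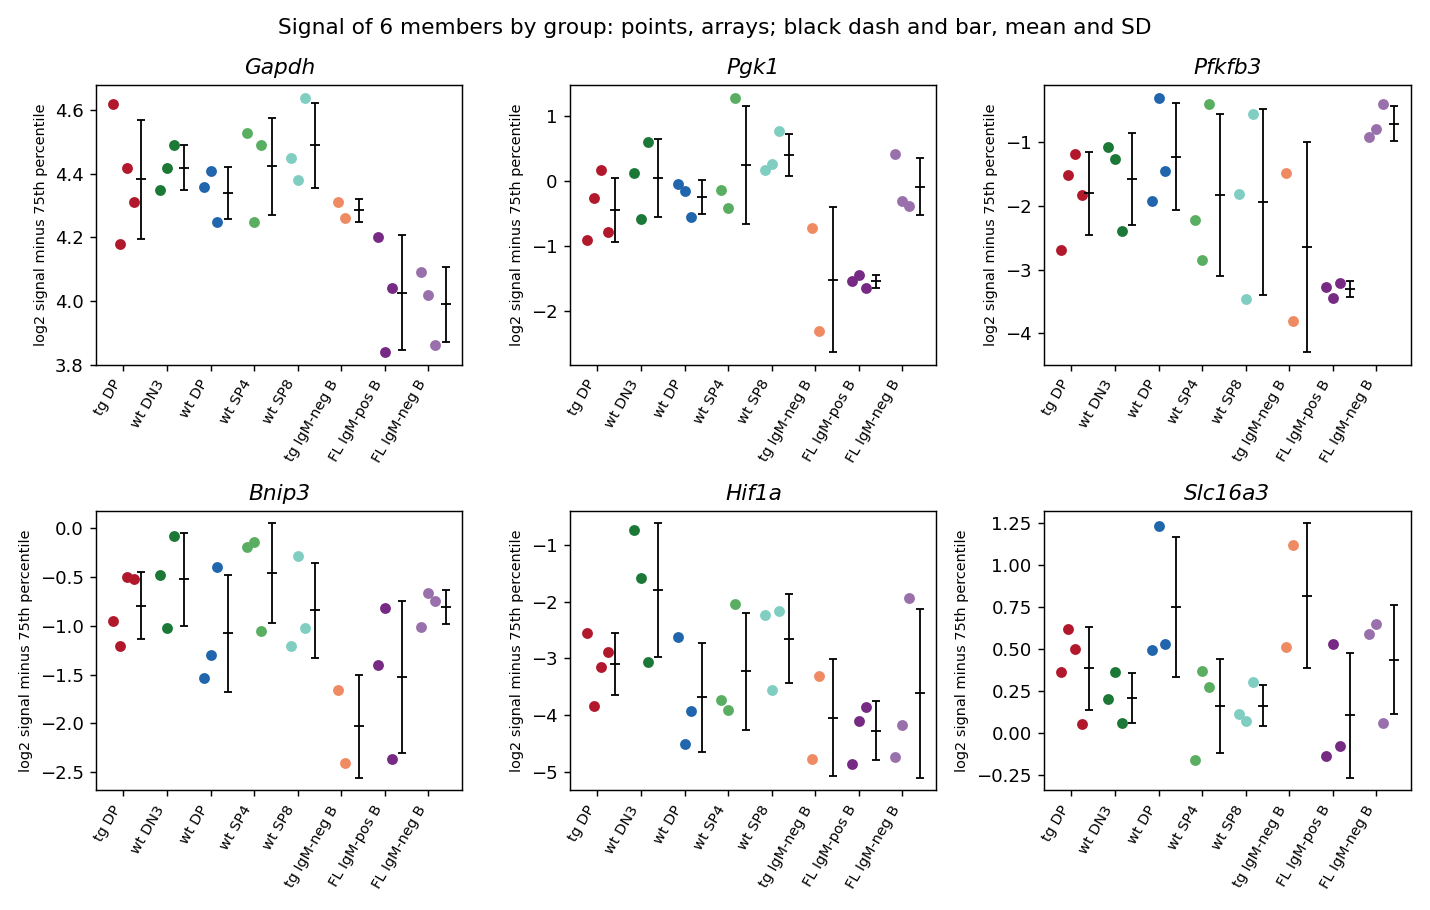
Points are arrays and black bars the mean and SD of each group for 6 genes, on the log2 scale relative to the array's 75th percentile; the vertical scales differ. All 12 wt thymocyte arrays lie above the 6 fetal liver B arrays for Gapdh, and for Pfkfb3 and Pgk1 the 3 IgM-positive arrays lie close together below the 3 IgM-negative ones.

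In fetal liver, Pfkfb3 and Pgk1 had the strongest statistics of the set and were lower in IgM-positive than in IgM-negative B cells, without passing. Here 0 of the 32 genes and 0 of all genes (0%) passed by limma, and 4 of the 32 against 2385 of all genes (7.1%) had an unadjusted p under 0.05. Over the 32 genes, 11 of them higher in IgM-positive cells, the median difference was -0.10, against -0.15 over all genes. The groups did not overlap for 6 of the 32 genes, with Pfkp higher and Pfkfb3, Aldoc, Tpi1, Pgk1 and Egln1 lower in IgM-positive cells, and for 13.5% of all genes.

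Pfkfb3, which makes the activator of phosphofructokinase and so sets the pace of glycolysis, measured -3.27, -3.45 and -3.21 on IgM-positive arrays, against -0.92, -0.80 and -0.40 on IgM-negative arrays. Each group was tight and the gap between them wide, with a difference of -2.60 ± 0.73 (adjusted p = 0.449). Its other probe, well above background on 18 of 24 arrays, differed by -0.80, and the mean of both by -1.70. Pgk1 measured -1.54, -1.45 and -1.65 on IgM-positive arrays, against 0.42, -0.30 and -0.38 on IgM-negative arrays. Again the groups did not overlap, with a difference of -1.46 ± 0.45 (adjusted p = 0.532). Both differences were about as large on slide 4 alone, at -2.62 for Pfkfb3 and -1.46 for Pgk1 (2 against 3 arrays). With only the compared groups in the fit, the adjusted p was 0.0788 for Pfkfb3 and 0.280 for Pgk1.

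Aldolase C (Aldoc), an aldolase of the brain that other tissues also express, was at -0.19, -0.02 and -0.34 in IgM-positive cells, against 0.33, 0.29 and 0.17 in IgM-negative cells (difference -0.45 ± 0.16, adjusted p = 0.611). The liver-type phosphofructokinase Pfkl was at -3.22, -1.26 and -2.97 in IgM-positive cells, against -1.35, -1.07 and 0.17 in IgM-negative cells, where 1 IgM-positive array overlaps (difference -1.74 ± 0.79, adjusted p = 0.685). The muscle and platelet types Pfkm and Pfkp, the other isoforms of that enzyme, differed by 0.33 and 0.12.

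B cells of tg thymus were set against IgM-negative B cells of fetal liver, the group with the same cell label from another organ. None of the B cell markers passed. In tg cells 6 of 9 lay lower, with a median of -0.75, as did 21281 of all 33597 genes, with a median of -0.21. The other 3 lay higher: Pax5 averaged 1.74 ± 0.06 in tg cells, against 1.51 ± 0.45, Igll1 -0.46, against -0.91, and Ms4a1 -1.3, against -1.9. Cd79a, a signalling chain of the B cell receptor, was at -3.29 ± 2.12 in tg cells, against 0.34 ± 1.15. Its difference was -3.63 ± 0.84 (adjusted p = 0.0935, limma). The mean of Cd79a in tg B cells lay below that of every thymocyte group, and the part of cell identity in the differences below was not tested. The tg cells had lower signals of Pgk1, Pfkfb3 and Bnip3, none past the threshold: 0 of the 32 genes and 48 of all genes (0.143%) passed, and 5 of the 32 against 5759 of all genes (17.1%) had an unadjusted p under 0.05. Over the 32 genes, 14 of them higher in tg cells, the median difference was -0.17, against -0.21 over all genes. The groups did not overlap for 11 of the 32 genes, which with 2 against 3 arrays also held for 33% of all genes.

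Pgk1 was at -0.73 and -2.31 in tg B cells, against 0.42, -0.30 and -0.38 in fetal liver IgM-negative B cells (difference -1.43 ± 0.50, adjusted p = 0.182). Bnip3, a mitochondrial protein that promotes clearance of mitochondria and a known target of the hypoxia factor, was at -1.66 and -2.40 in tg B cells, against -1.01, -0.67 and -0.75 (difference -1.23 ± 0.45, adjusted p = 0.197). Pfkfb3 was at -1.48 and -3.81 in tg B cells, against -0.92, -0.80 and -0.40 (difference -1.94 ± 0.82, adjusted p = 0.243). For each of these the lower value was that of tg B 23, the array with the fewest probes above background. Without it the differences were -0.65, -0.85 and -0.78, and without tg B 22 they were -2.22, -1.60 and -3.10, where Pgk1 and Pfkfb3 passed (adjusted p = 0.0138 and 0.0346).

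Car9 was at 2.58 and 3.64 in tg B cells, against 2.66, 2.63 and 2.50 in fetal liver IgM-negative B cells. The difference of 0.51 ± 0.23 (adjusted p = 0.259) rests on tg B 23, since without that array it was -0.02. With median scaling it was 0.81. The neuronal-type glucose transporter Slc2a3 was at -3.39 and -7.28 in tg B cells, against -2.58, -3.14 and -2.30, and was not well above background on tg B 23 (difference -2.66 ± 1.18, adjusted p = 0.260). In this comparison the probes of 5 of the 14 genes with several probes differed in sign, namely Hk1, Pfkfb3, Gapdh, Slc16a3 and Bnip3. The other Pfkfb3 probe gave 1.29, and the 3 Bnip3 probes gave -1.23, 1.04 and -1.43. With the mean of all probes the difference was -0.33 for Pfkfb3 and -0.54 for Bnip3.

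**Figure D3:**
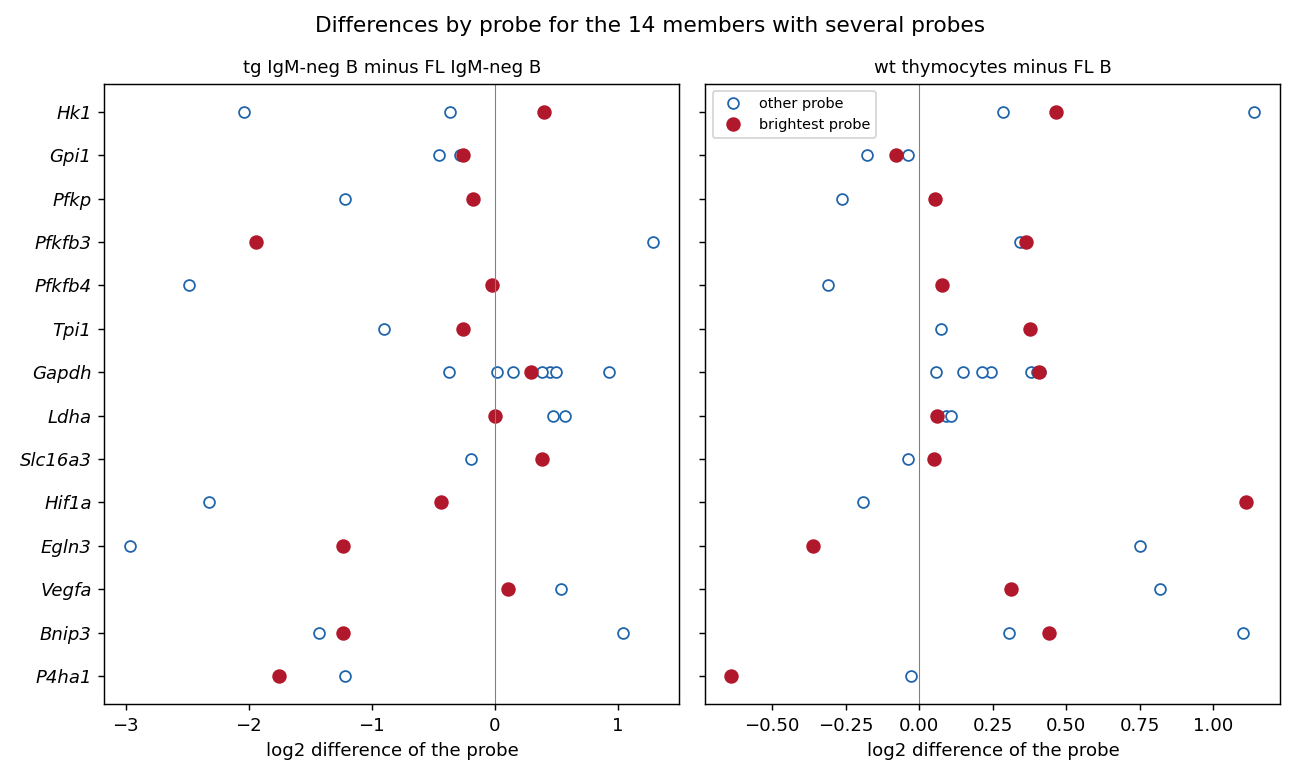
Each point is a probe of 1 of the 14 genes with several probes, placed by its log2 difference between tg and fetal liver IgM-negative B cells (left) and between wt thymocytes and fetal liver B cells (right); filled points are the brightest probes. The probes of 9 of the 14 genes share a sign in each panel, and the 8 Gapdh probes all lie right of 0 in the right panel.

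DP thymocytes of tg thymus were set against wt DP thymocytes, a cell type present in both. The tg thymus is transgenic and lacks Foxn1, whereas the wt thymus is Foxn1 heterozygous. Loss of Foxn1 and the transgene cannot be told apart in this comparison. No difference of the set stood out: 0 of the 32 genes and 0 of all genes (0%) passed by limma, and 0 of the 32 against 1114 of all genes (3.32%) had an unadjusted p under 0.05. Over the 32 genes, 12 of them higher in tg DP, the median difference was -0.03, against -0.07 over all genes. The SE of these differences ran from 0.14 to 1.10 with a median of 0.37, which limits what 4 against 3 arrays could show.

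The strongest statistic was that of Slc2a3, at -5.12, -3.21, -2.56 and -7.39 in tg DP, against -2.66, -2.57 and -3.12 in wt DP. The tg arrays spread over a wide range and 2 of the 4 were not well above background (difference -1.79 ± 0.98, adjusted p = 0.9999). Without tg DP array 6B it was -0.85, with normexp background -0.64 and with array weights -0.67. Lactate dehydrogenase B (Ldhb), which favours the turn of lactate to pyruvate, was at -2.91, -1.26, -2.81 and -1.96 in tg DP, against -3.12, -3.91 and -4.06 in wt DP (difference 1.46 ± 1.10, and 0.84 with normexp background). Ldhb and Ndrg1, a stress-responsive target of the hypoxia factor, were the 2 genes whose groups did not overlap, both higher in tg DP, against 6.93% of all genes without overlap. The difference for Ndrg1 was 0.49 ± 0.63. Lactate dehydrogenase A (Ldha), the main producer of lactate, averaged 2.49 ± 0.34 in tg DP and 2.49 ± 0.04 in wt DP. The lactate exporter Slc16a3 differed by -0.37 ± 0.24, by -0.13 without wt DP array 2 and by -0.24 with array weights. Tpi1 differed by -0.35 ± 0.21, by -0.23 without tg DP array 4 or wt DP array 3A, by -0.54 without wt DP array 3 and by -0.13 with the mean of all probes.

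The effects of both tg comparisons, meaning tg cells minus their comparison group, were also set against each other. These comparisons share no arrays. The DP effect is within thymus, whereas the B cell effect sets thymus against wild-type fetal liver. Organ and genotype cannot be told apart in the B cell effect, so a gap between the effects need not reflect cell type. Of the 32 genes 0 passed, against 2 of all genes (0.00595%), and 2 of the 32 against 3252 of all genes (9.68%) had an unadjusted p under 0.05 by limma. Bnip3 had the strongest statistic, with the effect in DP above that in B cells by 1.51 ± 0.58 (adjusted p = 0.444), but by 0.30 with the mean of all probes. It was followed by Car9 at -0.68 ± 0.29 (adjusted p = 0.483; -1.22 without tg B 22 and -0.15 without tg B 23), Slc16a3 at -0.75 ± 0.37 and Egln3 at 1.51 ± 0.78. Slc16a3 was at -0.45 without tg B 23 and at -0.46 with the mean of all probes.

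Along wt thymocyte development no gene of the set passed a test either. For DP against DN3, SP4 against DP, SP8 against DP and SP4 against SP8, 0 of the 32 genes and 0 of all genes (0% in each) passed by limma. At an unadjusted p under 0.05 the counts were 3 of the 32 against 702 of all genes (2.09%) for DP against DN3, 2 against 2187 (6.51%) for SP4 against DP, 1 against 729 (2.17%) for SP8 against DP and 2 against 1726 (5.14%) for SP4 against SP8. The median differences over the 32 genes were -0.04, 0.02, -0.06 and 0.05, against 0.04, -0.07, -0.03 and -0.03 over all genes.

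The hypoxia factor gene Hif1a was at -2.63, -4.51 and -3.92 in DP, against -0.74, -1.59 and -3.06 in DN3, where it was highest of all groups. The stages overlap through 1 array each, and the difference was -1.89 ± 0.75 (adjusted p = 1). Its second probe, well above background on 7 of 24 arrays, differed by -1.33. The difference was -1.21 with normexp background, and -2.95 on slide 2, which holds the 3 DP arrays and 1 of DN3. Across the other groups Hif1a averaged -3.11 ± 0.54 in tg DP, -3.23 ± 1.03 in SP4, -2.65 ± 0.79 in SP8, -4.05 ± 1.04 in tg B cells, -4.28 ± 0.52 in IgM-positive and -3.62 ± 1.48 in IgM-negative B cells. All 3 IgM-positive arrays lay below every tg DP, DN3 and SP8 array and both tg B arrays below every DN3 array, while the remaining pairs of groups overlapped. Since oxygen acts on the Hif1a protein, its RNA level is no measure of the factor's activity.

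The hydroxylase Egln3, itself a target of the factor, was at -0.68, -1.10 and -0.50 in DP, against 0.06, 0.22 and 0.06 in DN3, and at -1.72, -1.24 and -1.36 in SP4. These 3 stages did not overlap, DN3 being highest and SP4 lowest, but the differences were -0.87 ± 0.54 for DP against DN3 and -0.68 ± 0.54 for SP4 against DP. Its second probe gave -1.32 for DP against DN3. SP8, at -0.77, -0.96 and -2.63, overlapped both DP and SP4. Egln1, the main oxygen sensor among the hydroxylases, had group means between -1.33 and -0.84.

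Slc16a3 averaged higher in wt DP than in the other wt stages, without passing. It measured 0.49, 1.23 and 0.53 in DP, against 0.20, 0.36 and 0.06 in DN3, and -0.16, 0.37 and 0.27 in SP4 and 0.11, 0.07 and 0.30 in SP8. No array of the other 3 stages reached the lowest DP array. No slide held DP arrays together with SP4 or SP8 arrays, so stage and slide cannot be told apart there. Outside these stages wt DP did not stand apart. Arrays of tg DP lay at 0.05 to 0.62, IgM-negative ones of fetal liver at 0.06 to 0.65 and IgM-positive ones at -0.14 to 0.53. The tg B cells averaged 0.82. The differences were 0.54 ± 0.25 for DP against DN3 (adjusted p = 1), -0.59 ± 0.25 for SP4 against DP (adjusted p = 0.729) and -0.59 ± 0.25 for SP8 against DP (adjusted p = 0.9999), and all 3 share the DP arrays. Without DP array 2 the first of these was 0.30 and the others were -0.35 each. Its second probe gave 0.50 for DP against DN3. The related transporter Slc16a1 had group means from -2.51 to -1.38, lowest in DN3 and highest in tg B cells.

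Aldolase A (Aldoa), which splits the doubly phosphorylated sugar, was at 1.55, 1.75 and 1.76 in DP, against 2.15, 2.27 and 1.93 in DN3, with no overlap (difference -0.43 ± 0.16, adjusted p = 1). Non-overlapping groups in either direction made up 12.1% of all genes for DP against DN3, 15.6% for SP4 against DP, 10.8% for SP8 against DP and 10.7% for SP4 against SP8, and 4, 2, 2 and 4 of the 32 genes. Hexokinase 1 (Hk1), which traps glucose in the cell, was at 1.73, 1.09 and 1.01 in SP4, against 0.48, 1.12 and 0.29 in DP (difference 0.65 ± 0.27, adjusted p = 0.697). The Hk1 value comes from the probe that the array places on another chromosome, and the mean of its 3 probes gave 0.55. Without SP4 array 10 the difference was 0.42. No slide held both SP4 and DP arrays, and with the slide as a block it was 0.38. Glucose-6-phosphate isomerase (Gpi1) was at -0.54, 0.36 and -1.62 in SP4, against 0.19, 0.52 and 0.52 in SP8 (difference -1.01 ± 0.40, adjusted p = 0.900), and without SP4 array 12 the difference was -0.50. The peptide hormone gene Adm was at -5.69, -5.44 and -4.78 in SP4, against -3.37, -4.65 and -3.86 in SP8, and was well above background on 1 of 3 SP4 arrays (difference -1.34 ± 0.57, adjusted p = 0.930, and -0.43 with normexp background).

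**Figure D4:**
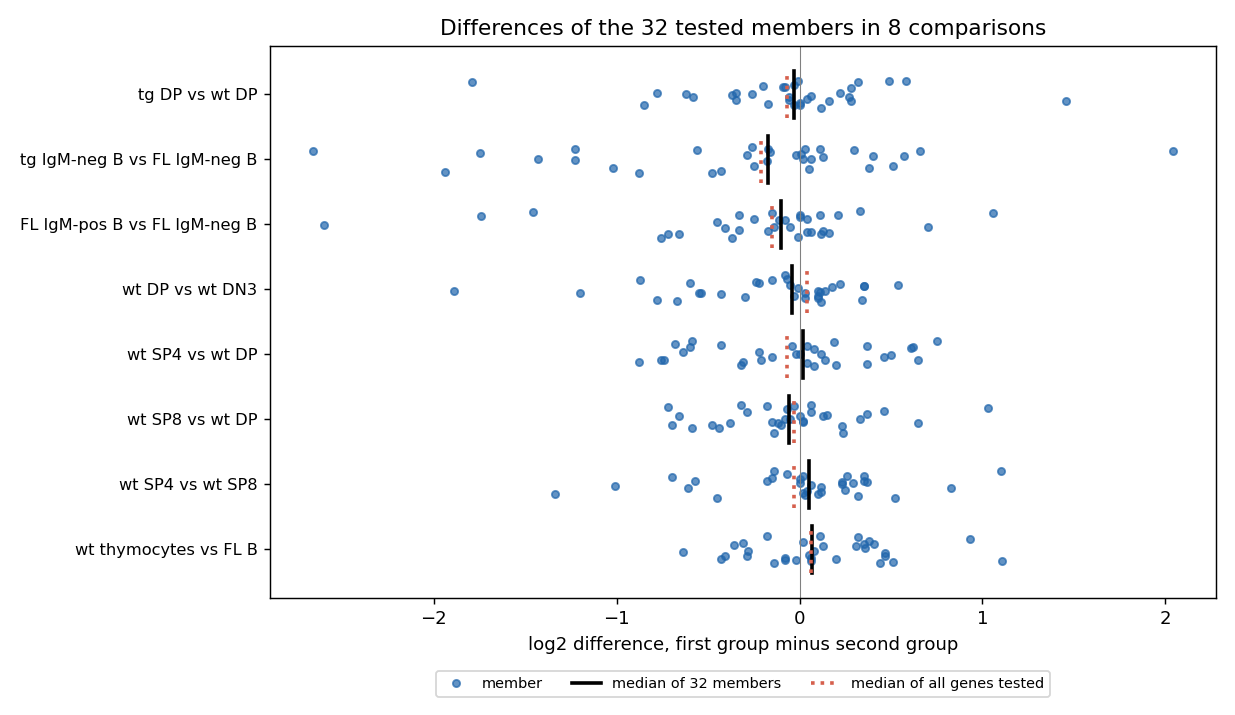
Points are the log2 differences of the 32 tested genes in 8 comparisons, the black line their median and the dotted line the median of all 33597 genes. The medians of both lie between -0.21 and 0.07 in every comparison, and the widest spread, from -2.66 to 2.04, is that of tg against fetal liver IgM-negative B cells.

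The dimmest genes of the set were measured with the least certainty. Hexokinase 2 (Hk2), the inducible isoform, was well above background on 10 of 24 arrays, ranged from -7.71 to -3.81 and was not tested. The glucose transporter Slc2a1 was well above background on 19 arrays, Adm on 20, Slc2a3 on 21, Ldhb on 22 and P4ha1, a collagen prolyl hydroxylase, on 23. Their SDs over the 24 arrays were 0.814, 0.753, 1.44, 1.48 and 1.33, each wider than that of the median gene. Bright enzymes were steady: the SD was 0.213 for Gapdh, 0.210 for Aldoa, 0.202 for Eno1, 0.175 for Eno2, 0.244 for Ldha and 0.173 for Pfkp. The vessel growth factor Vegfa had group means from -1.64 in IgM-positive cells to -0.59 in DN3, the kinase Pdk1, which holds pyruvate back from mitochondria, from -4.23 in tg B to -3.00 in IgM-positive cells, and Pfkfb4 from -3.64 in tg DP to -2.53 in IgM-positive cells.

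Genes of neighbouring pathways, taken from lists by function, did not pass either in any of the 8 pairwise comparisons. In fetal liver IgM-positive against IgM-negative cells, 18 of 23 other isoforms of glycolysis enzymes were lower, with a median of -0.25. So were 6 of 7 genes of the pentose phosphate pathway, with a median of -0.79. Of all 33597 genes 22302 were also lower, with a median of -0.15. In tg against fetal liver B cells the pentose phosphate gene Rpia, an isomerase, was at -7.12 ± 0.46 and not well above background on either tg array, against -3.21 ± 0.58 (adjusted p = 0.0937). The mitophagy receptor Bnip3l, a relative of Bnip3, was at -0.08 ± 0.50 in tg B cells, against 0.98 ± 0.12 (difference -1.06 ± 0.33, adjusted p = 0.156). In SP8 against DP thymocytes 9 of 10 genes of the pyruvate dehydrogenase complex and its regulators were higher, with a median of 0.33. Of all 33597 genes 15461 were higher, with a median of -0.03. No slide held both SP8 and DP arrays, so stage and slide cannot be told apart in this comparison. The subunit Pdha1 of that complex was at 0.11 ± 0.10 in SP8, against -0.63 ± 0.39 in DP (difference 0.73 ± 0.29, adjusted p = 1). In thymocytes against fetal liver B cells Hif3a, a relative of the hypoxia factor, differed by -0.54 ± 0.15 (adjusted p = 0.123).

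The hypoxia factor is known to bind DNA at a short core, and the promoters of the set hold that core more often than promoters at large. Of 45 RefSeq windows around transcript starts (GRCm38.p6) for 31 of the genes, 36 held ACGTG or GCGTG on either strand, against 14380 (43.8%) of all 32851 windows. The windows of the set also had a median of 20 CpG, against 7, and 61.3% G and C, against 52.7%, and both cores hold a CpG. The window of Ldha is shown because it held the most, 7, with the cores on both strands in capitals; a palindromic CACGTG counts once per strand.
Ldha, chr7:46845554-46845853 (plus strand, GRCm38.p6): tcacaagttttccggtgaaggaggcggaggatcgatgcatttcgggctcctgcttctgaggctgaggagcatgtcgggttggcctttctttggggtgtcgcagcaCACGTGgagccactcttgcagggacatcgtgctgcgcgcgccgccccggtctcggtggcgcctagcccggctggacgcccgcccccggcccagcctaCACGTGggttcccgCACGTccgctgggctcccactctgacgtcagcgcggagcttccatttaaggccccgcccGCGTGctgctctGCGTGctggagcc
A match is a description of the letters and no sign of binding, and Ldha averaged between 2.28 and 2.64 in all 8 groups.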

How the data were processed

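Each of 24 samples was measured on 1 Agilent single-colour array of 62976 spots. Per the file headers, the deposited intensities came from Feature Extraction 10.7.3.1 and probes are placed on mm9. The authors also deposited a table of log2 expression with nearly equal column medians of 7.93, which kept the rank order of each array's signals; it served as an alternative. No source used here states how that table was made. The 3671 control spots were dropped, 248 values marked non-uniform were treated as missing, and 0 gene spots were saturated. The number of arrays limits the precision.

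Log2 processed signals were scaled to their array's 75th percentile. A gene took its brightest probe and was kept if all arrays of some group had a probe well above background (33597 of 34844 names). limma 3.58.1 in R 4.3.3 fitted 8 group means over all 24 arrays without covariates, and calls used a Benjamini-Hochberg adjusted p of 0.05 over all genes. The fit was tested on simulated data. Groups came from the titles, since a cell type label of the SP4 samples names SP8. Genes, lists and comparisons were chosen with earlier results of these data known. All 33 genes may be named; differences are given for up to 4 genes per comparison with the strongest statistic, and others named were chosen after their values were seen. Of the other lists, up to 2 genes per list and comparison with the strongest statistic are eligible. Scaling, background correction, the dim-probe filter, the probe rule, slide, array weights and left-out arrays were varied.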

Additional observations from a re-analysis of the deposited data

Results flagged for a closer look

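In tg DP thymocytes, array 4 had an Aldoa level of 2.12, far from the other tg DP arrays at 1.67, 1.69 and 1.74, by Dixon's test for a lone value. Array 4 is also 1 of the 3 arrays that stood apart on all genes. It lies on slide 1, whereas arrays 6, 6A and 6B lie on slide 2 and may be repeats of the same cells. The test takes the arrays as separate samples, so it cannot tell a lone array from a difference of sample or slide. The Eno1 level of tg DP array 6A was 1.42, against 1.27, 1.28 and 1.29 on the other tg DP arrays. About 1 in 20 groups is marked in this way by chance, and only tg DP, the group of 4 arrays, could be examined. That rate holds for each gene separately, so over the genes of a set some marks can arise by chance alone.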

How the results depend on the processing

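Counts of genes of the set past the threshold were 0 in each comparison and moved under few alternatives. For thymocytes against fetal liver B cells the count was 1, Gapdh, with normexp background (adjusted p = 0.0425) and with only probes well above background on all arrays (adjusted p = 0.046), and ran from 0 to 1 when arrays were left out, being 1 without IgM-positive 19 (adjusted p = 0.0352) or without either tg B array (adjusted p = 0.0408). For tg against fetal liver B cells it ran from 0 to 5 when arrays were left out: without tg B 22, where tg B 23 alone takes its spread from the other groups, Car9 (1.04), Pfkfb3, Pgk1, Slc16a1 and Slc2a3 passed. For the difference of the tg effects it ran from 0 to 1, and for any difference from 0 to 3, again without tg B 22. Array weights gave 1 for any difference (Car9, adjusted p = 0.0205).

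Of 36 named differences, 2 of 428 values under other settings and 1 of 864 with 1 array left out changed sign. Car9 in tg B cells was -0.02 without tg B 23, and also -0.02 without tg B 23, tg DP 4 and IgM-positive 21, an alternative added after the data were seen. Hk1 for DP against DN3 was 0.01 with the mean of all probes, against -0.54. Totals over all genes moved further: for thymocytes against B cells from 82 to 2 with arrays of 1 title number averaged, 5 with the mean of all probes, 32 with the slide as a block and 209 with only the compared groups, or between 0 and 365 with 1 array left out, and for tg B cells from 48 to 8 with quantile scaling, 0 with only the compared groups or with array weights, and 5811 without tg B 22. The causes were not tested. Median scaling gave -1.13 in place of -1.43 for Pgk1 in tg B cells and 0.32 in place of 0.41 for Gapdh in thymocytes. No paired analysis was possible because the groups compared share no replicate numbers. Dim genes such as Hk2, Slc2a1 and Adm are limited by their signal over background.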
